A study of Mus musculus with 7 samples.

Results

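The WNT pathway genes were followed here in RNA-seq counts of mouse embryonic fibroblasts (MEFs) and mouse embryonic stem cells (mESCs). A gene was a member when its symbol began with Wnt or Fzd followed by a digit, or when it stood in a list of co-receptors, secretion factors, inhibitors, R-spondins and their receptors, destruction complex components and TCF/LEF factors. The rule itself used gene names and no measured value, and found 63 of the 55484 genes listed. The members were chosen with earlier results of these data known, so the set is not independent of them. MEFs are connective tissue cells cultured from embryos, while mESCs come from the inner cell mass of the blastocyst and can form all tissues of the body. The study gives a C57/Bl6 background for its MEFs and mESCs in its methods on the ATAC-seq libraries. It describes the RNA-seq data as a set the laboratory already had, so the strain is taken over from there. No treatment or genetic change is named for either group, and the design text names a comparison of pluripotent stem cells with fibroblasts. The 4 MEF and 3 mESC libraries are called A to D and A to C in order of falling total count, because the count columns do not show which sample they hold. The study calls its replicates biological but counts fewer of them for MEFs than the 4 libraries used here, and neither it nor the labels say whether they came from separate cultures or embryos, so the p-values measure the spread between these libraries, which may be technical.

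WNT ligands are secreted lipid-modified proteins that bind Frizzled receptors on the cell surface. In the canonical branch, binding together with the co-receptors LRP5 or LRP6 stops a destruction complex from degrading β-catenin, which then enters the nucleus and acts with TCF/LEF factors on target genes. In mESCs this branch is known to favour self-renewal, and inhibition of GSK3 is widely used in their culture. Other ligands such as WNT5A act largely without β-catenin, and fibroblasts are a well-known source of WNT ligands, R-spondins and secreted WNT inhibitors.

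Library totals ran from 6528643 to 11441278 counts, and a floor of 3 counts corresponded to 0.288 to 0.477 CPM. CPM here means counts per 1000000 counts of a library after TMM scaling, edgeR's correction for differences in library composition, and it is not divided by gene length. Without this scaling the median log2 fold change of all tested genes moved from 0.04 to 0.32, so changes near these sizes depend on it. All 14 tested genes of 15 pluripotency markers were higher in mESCs and all 16 fibroblast markers were lower, which goes with the labels. The fibroblast markers summed to between 399.7 and 449.6 CPM in mESCs, against 27170 to 44114 CPM in MEFs. Of other cell types, 8 neural markers summed to 250.6 to 364.7 CPM in MEFs and 658.1 to 733.6 CPM in mESCs, and 13 blood markers to 112.7 to 210.6 and 43.2 to 58.2 CPM. The neural sum in mESCs was mostly Stmn2, at 576 to 654 CPM against 53.9 to 81.3 CPM in MEFs. Elavl3 and Sox1 were also higher in mESCs, while Nes, Tubb3 and Map2 were lower with log2 fold changes of -3.33, -1.71 and -2.04. The blood sum in MEFs was mostly Ly6a and Cd34, which were lower in mESCs, while Kit and Cd68 were higher there. Summed levels of 8 endothelial markers were 25.8 to 38.8 CPM in MEFs and 55.3 to 85.2 CPM in mESCs. Pecam1 (mean 2.79 CPM in MEFs and 29.9 CPM in mESCs) and Vwf were higher in mESCs. The other tested markers Kdr, Emcn and Tek did not pass the threshold, with log2 fold changes of -1.70, -0.40 and -0.39. The part of such cells in the results below was not tested, and in bulk samples fewer cells of a type cannot be told apart from less RNA per cell.

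Most WNT pathway genes that differed were lower in mESCs. Of the 63 members, 51 had enough counts to be tested, 7 were higher and 26 lower in mESCs, and 18 did not pass the threshold (edgeR's quasi-likelihood test, adjusted p under 0.05 over all 16580 tested genes). Over all tested genes, 22.8% were higher and 25.0% lower, while among the tested members 13.7% were higher and 51.0% lower. The median log2 fold change, mESC over MEF, was -0.97 for the tested members and 0.04 for all tested genes. MEF and mESC libraries did not overlap in CPM for 36 of the 51, or 70.6%, against 52.1% of all tested genes. A gene could pass the filter on counts through a single cell type, so these counts describe the tested members and not all 63. Of the 63, 41 were above the floor in all 7 libraries and 1, Wnt8b, in none.

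**Figure D1:**
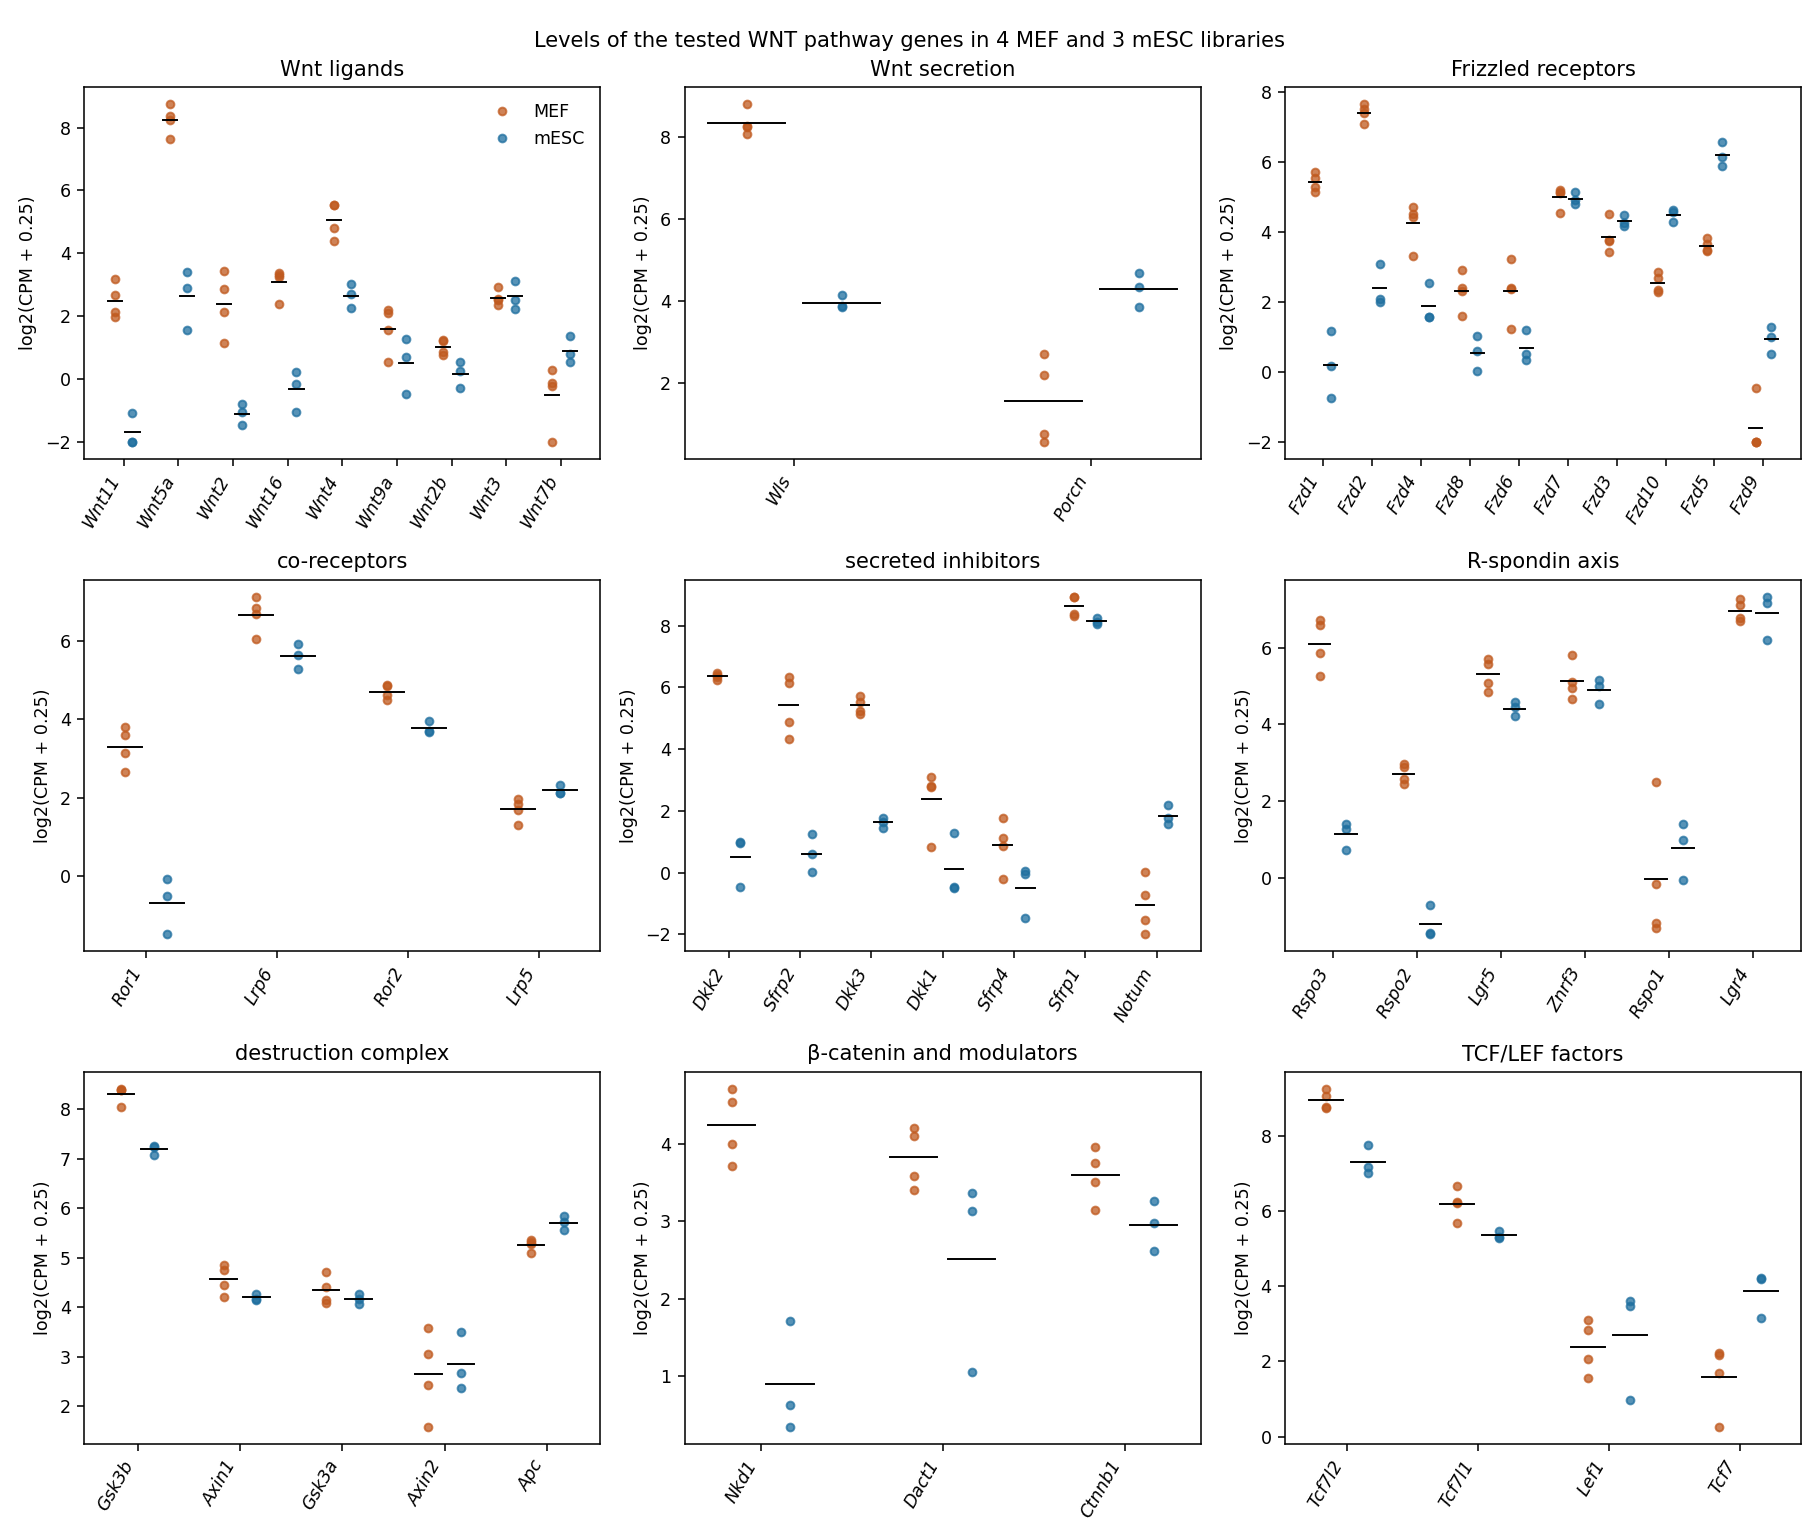
Levels of 50 tested WNT pathway genes as log2(CPM + 0.25), in 9 panels by role, with each point 1 library (orange MEF, n = 4, and blue mESC, n = 3) and each black line the mean of the plotted values. Wnt5a, Wls, Fzd2 and Dkk2 lie far higher in all MEF libraries, while Fzd5, Fzd10 and Porcn lie higher in all mESC libraries, and Fzd7 and Lgr4 overlap.

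**Figure D2:**
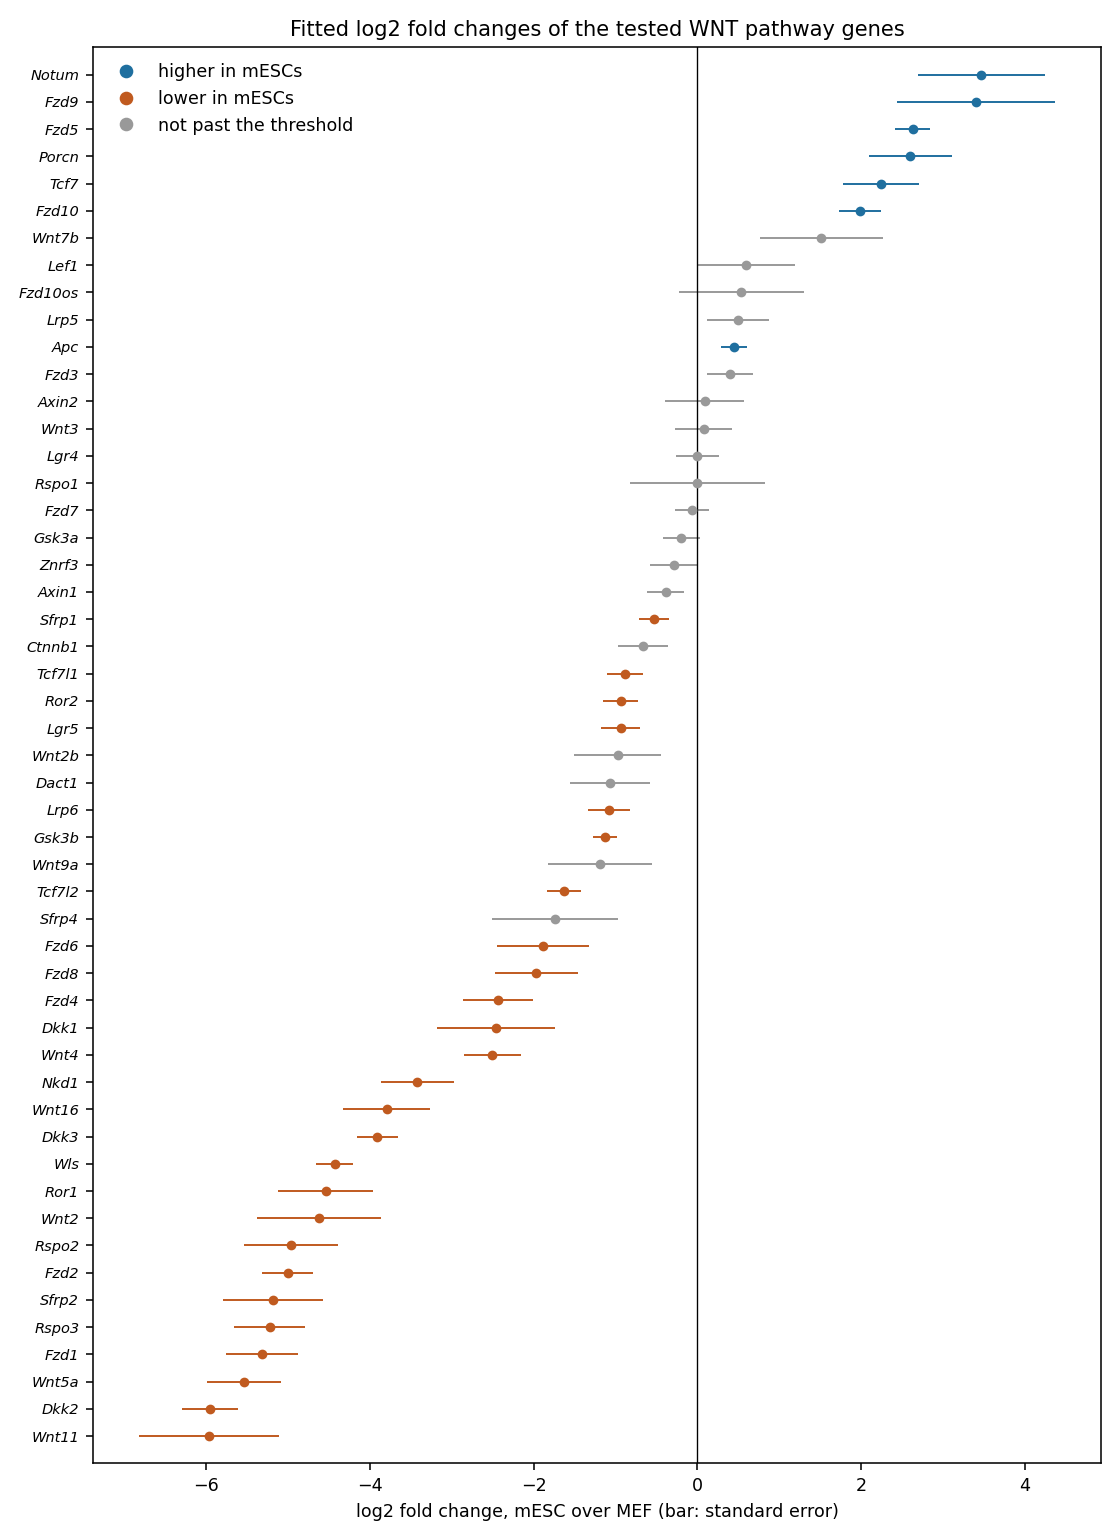
Fitted log2 fold change (mESC over MEF) of each of the 51 tested genes, with bars of 1 standard error from edgeR's fit over 7 libraries. The 7 blue points passed the threshold as higher in mESCs, the 26 orange points passed it as lower, and the 18 grey points did not pass it.

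TCF/LEF factors bind DNA through a core written CTTTGA, and the promoters below show this core in a ligand, a receptor and an inhibitor that were lower in mESCs, with Fzd10 as a member higher in mESCs whose window does not hold it. Each is the 250 bases before a RefSeq start site on GRCm38.p6, 5′ to 3′ on the gene's strand, with the core or its reverse complement TCAAAG in capitals. Wnt11 is shown at chr7:98834862-98835111 (plus strand), Fzd1 at chr5:4758217-4758466 (minus strand), Dkk1 at chr19:30549497-30549746 (minus strand) and Fzd10 at chr5:128600856-128601105 (plus strand).
Wnt11: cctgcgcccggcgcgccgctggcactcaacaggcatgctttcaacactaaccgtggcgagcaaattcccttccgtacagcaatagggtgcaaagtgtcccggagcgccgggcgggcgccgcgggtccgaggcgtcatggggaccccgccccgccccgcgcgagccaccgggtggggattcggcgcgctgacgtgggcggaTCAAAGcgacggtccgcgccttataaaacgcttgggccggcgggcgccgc
Fzd1: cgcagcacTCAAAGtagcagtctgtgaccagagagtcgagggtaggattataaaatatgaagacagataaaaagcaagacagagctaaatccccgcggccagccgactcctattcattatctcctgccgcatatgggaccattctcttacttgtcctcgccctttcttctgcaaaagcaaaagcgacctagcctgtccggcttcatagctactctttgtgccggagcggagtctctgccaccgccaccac
Dkk1: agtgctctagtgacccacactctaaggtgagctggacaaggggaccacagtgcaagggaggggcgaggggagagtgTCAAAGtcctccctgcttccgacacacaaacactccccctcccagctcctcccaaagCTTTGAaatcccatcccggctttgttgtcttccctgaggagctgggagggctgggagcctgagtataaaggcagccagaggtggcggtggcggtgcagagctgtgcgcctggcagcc
Fzd10: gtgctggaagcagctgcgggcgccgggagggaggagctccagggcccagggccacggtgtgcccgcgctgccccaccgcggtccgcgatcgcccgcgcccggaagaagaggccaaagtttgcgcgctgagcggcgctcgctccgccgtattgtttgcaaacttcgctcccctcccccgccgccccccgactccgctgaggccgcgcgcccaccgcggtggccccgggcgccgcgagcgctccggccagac
The Dkk1 window holds the core at 2 places, whose first bases lie 174 and 117 bases before the start site. That of Wnt11 lies 50 bases before the start and that of Fzd1 242 bases before it. RefSeq gives Wnt11 another start further along, and the window before it (chr7:98838595-98838844) does not hold the core. The core also lies 77 bases before the start of Gsk3b and 205 bases before that of Ror1, both lower in mESCs, and in windows of Gsk3a and Lef1, which did not pass the threshold, and of Wnt5b, which was not tested. Those windows are not printed. A RefSeq promoter was matched for 41 of the 63 members. Over windows of 300 bases (250 before and 50 after the start), searched on both strands, 8 of 51 member promoters held the core, or 15.7%, and 16.0% of all 32851 promoters did. A match describes letters in a window and does not show that a factor binds there.

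The called Wnt ligands were all higher in MEFs. Of 19 ligand genes, 9 were tested, 5 were lower in mESCs and 0 higher (edgeR, 0 higher at an unadjusted p under 0.05 and 0 by DESeq2), and 4 did not pass. The share lower was 55.6% of the tested ligands, against 25.0% of all tested genes, of which 22.8% were higher. Wnt5a, the best-known ligand of the β-catenin-independent branch (chromosome 14, 28504750 to 28527448), held 429.4, 301.5, 328.7 and 201.2 CPM in MEF libraries A to D. In mESC libraries A to C it held 7.26, 2.73 and 10.4 CPM. Every MEF library lay above every mESC library by a wide gap, and the log2 fold change was -5.54 (standard error 0.449, edgeR, adjusted p = 3.44e-06).

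Wnt11, a ligand used in embryonic cell movements (chromosome 7, 98835112 to 98855195), had 43, 51, 24 and 55 counts in MEFs and 0, 2 and 0 in mESCs. All mESC libraries were thus at or under the floor, and the pooled level in MEFs was 72.5 times that in mESCs, with an exact 95% interval for counting error of 19.8 to 604. The fitted log2 fold change was -5.97 (edgeR, adjusted p = 0.000211), and without mESC library B, which held both counts, it was -8.54 and is no bound. The last exon of Wnt11 overlaps Gm8398 on the other strand over 14.3% of its bases, and the strand setting of the counting is not given in the sources used here.

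Wnt2, a canonical ligand of mesenchyme, had 43, 88, 13 and 44 counts in MEFs and 3, 1 and 2 in mESCs. The 2 groups were separate, and the pooled ratio was 26.3 with an interval of 11.8 to 72.5 (edgeR log2 fold change -4.62, adjusted p = 0.000509). Wnt16, also a secreted ligand, held 4.99, 9.35, 10.2 and 9.70 CPM in MEFs and 0.650, 0.909 and 0.236 CPM in mESCs. Its lowest MEF library was above its highest mESC library, with a log2 fold change of -3.79 (edgeR, adjusted p = 0.00017). Wnt4, a ligand of kidney and gonad development, was lower in mESCs with a log2 fold change of -2.50, with 35.2 ± 12.8 CPM in the 4 MEF libraries and 6.20 ± 1.63 CPM in the 3 mESC libraries (mean ± SD).

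Wnt3, a canonical ligand, overlapped between the groups, at 4.91 to 7.29 CPM in MEFs and 4.43 to 8.49 CPM in mESCs, and the log2 fold change was 0.08 (standard error 0.351). Wnt2b, Wnt7b and Wnt9a also missed the threshold, with log2 fold changes of -0.97, 1.51 and -1.19. Wnt7b did not overlap between the groups, with 0 to 8 counts in MEFs and 11 to 20 in mESCs. The 10 ligands not tested were Wnt1, Wnt3a, Wnt5b, Wnt6, Wnt7a, Wnt8a, Wnt8b, Wnt9b, Wnt10a and Wnt10b, and none of them exceeded 2.06 CPM in any library. That highest value was Wnt7a in mESC library A, with 19 counts, where the other mESC libraries had 0.

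The ligand genes together summed to 386.9 ± 80.6 CPM in MEFs (SD, n = 4) and 29.4 ± 7.19 CPM in mESCs (SD, n = 3). Wnt5a held 80.3 ± 8.47% of the ligand counts in MEFs and 21.7 ± 8.53% in mESCs. Wnt4 held 9.75 ± 5.09% and 21.2 ± 3.14%, and Wnt3 held 1.53 ± 0.255% and 20.8 ± 3.62%. These are shares of counts without a correction for gene length, so each is read between cell types and not between genes. The share of Wnt5a in the ligand counts was thus larger in MEFs, and the shares of Wnt3 and Wnt4 were larger in mESCs. These were shares of a smaller sum in mESCs. The level of Wnt4 itself was lower there (log2 fold change -2.50), and that of Wnt3 did not pass the threshold (0.08).

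Ligand secretion split in opposite directions. Wls, the carrier that takes lipid-modified WNT proteins to the cell surface (chromosome 3, 159839672 to 159938664), held 300.5, 305.5, 266.2 and 444.3 CPM in MEFs. In mESCs it held 14.2, 14.3 and 17.3 CPM, far under any MEF library, and the log2 fold change was -4.43 (standard error 0.228, edgeR, adjusted p = 1.54e-07). Porcn, the acyltransferase that attaches the lipid (chromosome X, 8193848 to 8206525), held 1.44, 4.31, 1.22 and 6.20 CPM in MEFs and 19.8, 25.5 and 14.0 CPM in mESCs. Here every mESC library lay above every MEF library, and the log2 fold change was 2.60 (standard error 0.511, edgeR, adjusted p = 0.00167).

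Frizzled receptors changed in both directions. All 10 were tested, and 3 were higher (30%), 5 lower (50%) and 2 not past the threshold. Over all tested genes 22.8% were higher and 25.0% lower, so the share higher was close to that of all genes. Fzd2 (chromosome 11, 102604396 to 102608058) held 135.8, 180.8, 166.9 and 199.7 CPM in MEFs and 8.13, 3.75 and 4.01 CPM in mESCs. The groups were far apart, and the log2 fold change was -5.00 (standard error 0.311, edgeR, adjusted p = 5.27e-07). Fzd1, whose promoter is shown above, held 35.2, 46.4, 38.7 and 52.0 CPM in MEFs and 0.867, 0.341 and 2.01 CPM in mESCs. Its log2 fold change was -5.32 (edgeR, adjusted p = 4e-06), and -6.11 without mESC library C, the highest of the 3.

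Fzd5 (chromosome 1, 64730558 to 64737751) went the other way, with 14.0, 10.8, 10.8 and 12.4 CPM in MEFs and 69.8, 95.1 and 58.2 CPM in mESCs. The lowest mESC library was well above the highest MEF library, and the log2 fold change was 2.63 (standard error 0.213, edgeR, adjusted p = 3.4e-06). Its last exon overlaps Gm38058 on the other strand over 9.75% of its bases. Fzd10 was also higher in every mESC library, with 5.61 ± 1.12 CPM in MEFs (SD, n = 4), 22.2 ± 2.65 CPM in mESCs (SD, n = 3) and a log2 fold change of 1.99. Fzd10os, a separate gene that the name rule also takes in, did not pass, with 0.479 to 2.86 CPM in MEFs and 0.454 to 3.19 CPM in mESCs.

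Fzd9 was a gene of few counts, with 5, 0, 0 and 0 in MEFs and 16, 19 and 10 in mESCs. All mESC libraries were above the floor and only MEF library A was, and the pooled ratio was 10.7 with an interval of 4.28 to 34.7 (edgeR log2 fold change 3.41, adjusted p = 0.0136). Without MEF library A all MEF libraries were at 0 and the fitted value of 6.76 is no bound. Without mESC library B the value was 3.21 and did not pass the threshold.

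Fzd4, Fzd8 and Fzd6 were lower in mESCs with log2 fold changes of -2.43, -1.96 and -1.88. Fzd6 did not pass the threshold without mESC library B (-1.69) or mESC library C (-1.77), values near that of the full fit. Its groups came close without overlap, at 2.07 to 9.15 CPM in MEFs and 1.02 to 2.06 CPM in mESCs. Fzd7 and Fzd3 did not pass, with log2 fold changes of -0.07 (standard error 0.208) and 0.40 (standard error 0.283). For Fzd7 the libraries lay at 23.1 to 36.1 CPM in MEFs and 27.4 to 34.7 CPM in mESCs, and its value was 0.21 without TMM scaling.

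All Frizzled genes together summed to 308.7 ± 34.2 CPM in MEFs and 161.1 ± 27.4 CPM in mESCs (SD, n = 4 and 3). Fzd2 held 55.1 ± 3.24% of the Frizzled counts in MEFs and 3.36 ± 1.62% in mESCs, and Fzd1 held 13.9 ± 1.12% and 0.736 ± 0.671%. The share of Fzd5 was 3.94 ± 0.856% in MEFs and 45.7 ± 3.80% in mESCs, and that of Fzd10 was 1.83 ± 0.378% and 13.9 ± 1.04%. The ranges of these shares did not overlap between the cell types, as the plot of shares within families shows, and no test was made on them.

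**Figure D3:**
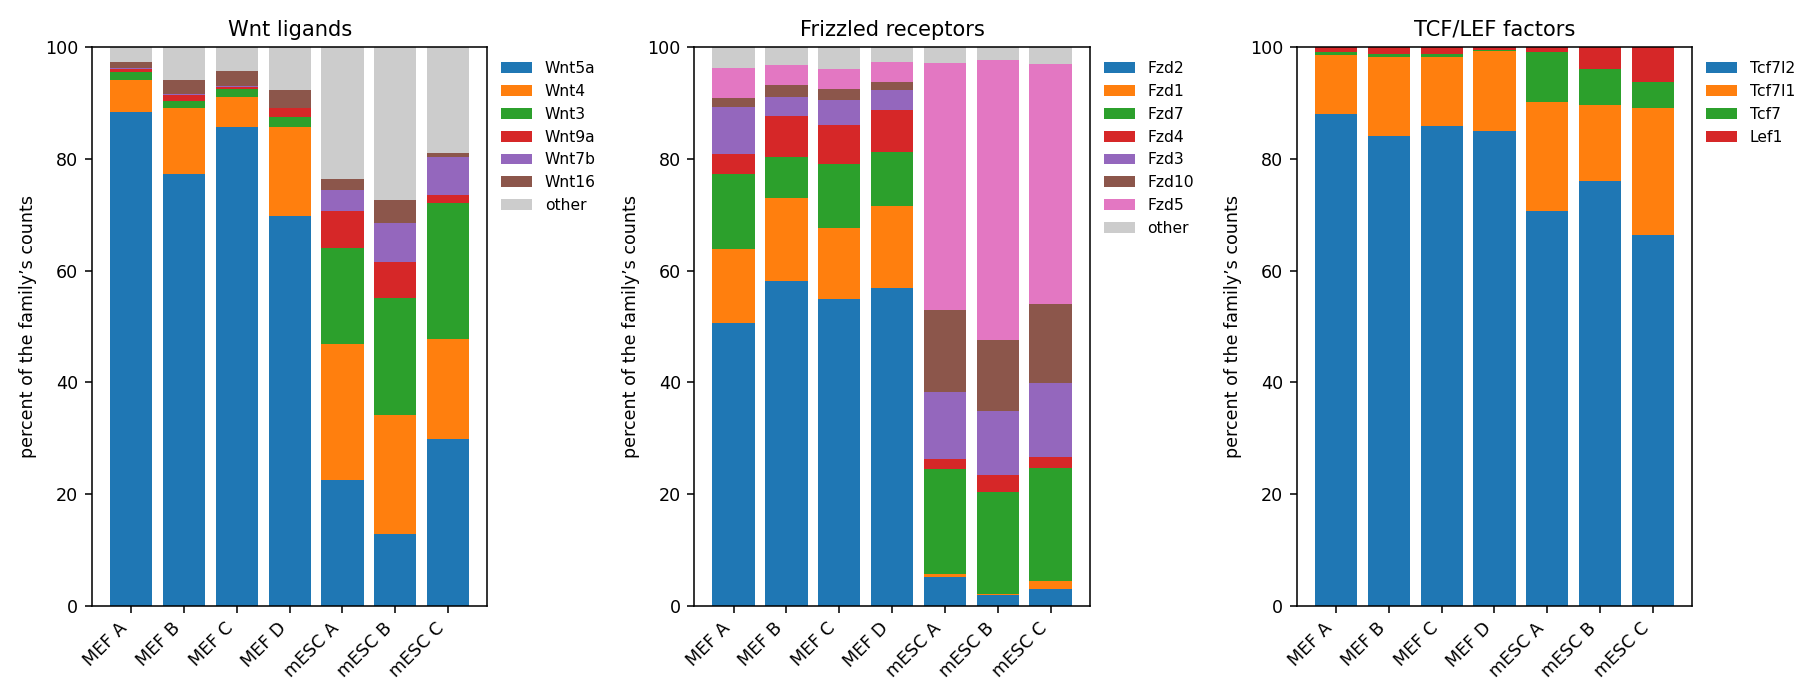
Percent of the counts of all Wnt ligands, all Frizzled receptors and all TCF/LEF factors that each gene took in each of 4 MEF and 3 mESC libraries (stacked bars from 0 to 100%, other members in grey). Wnt5a fills 69.7 to 88.4% of the ligand bar in MEFs and 12.8 to 29.8% in mESCs. The Fzd2 band is wider in MEFs and the Fzd5 band wider in mESCs.

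Co-receptors were lower in mESCs in 3 of 4 cases, with 0 higher (edgeR, 0 higher at an unadjusted p under 0.05 and 0 by DESeq2). Over all tested genes 25.0% were lower and 22.8% higher. Ror1, a receptor tyrosine kinase for WNT5A, held 8.54, 13.7, 6.10 and 11.9 CPM in MEFs and 0.108, 0.454 and 0.708 CPM in mESCs. The mESC libraries had 1, 4 and 6 counts, all far below MEFs, with a log2 fold change of -4.54 (edgeR, adjusted p = 9.35e-05). Its paralog Ror2 held 22.3, 28.6, 28.8 and 24.2 CPM in MEFs and 12.6, 15.3 and 12.7 CPM in mESCs. This gap was smaller and still without overlap, with a log2 fold change of -0.94 (edgeR, adjusted p = 0.00384). Lrp6, the canonical co-receptor, held 102.1, 139.4, 65.4 and 112.8 CPM in MEFs and 49.9, 60.3 and 38.8 CPM in mESCs. MEF library C came close to the highest mESC library, and the log2 fold change was -1.08 (standard error 0.256, edgeR, adjusted p = 0.00522). Lrp5 did not pass, with 2.23 to 3.66 CPM in MEFs and 4.09 to 4.77 CPM in mESCs and a log2 fold change of 0.50.

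Most of the tested secreted inhibitors were also lower in mESCs, though the Sfrp genes kept a high summed level there. The 4 Sfrp genes summed to 458.2 ± 124 CPM in MEFs and 284.2 ± 21.7 CPM in mESCs (SD, n = 4 and 3). Sfrp1 held 89.5% of the Sfrp counts in MEFs and 99.1% in mESCs. The 3 Dkk genes summed to 130.6 ± 12.4 CPM in MEFs and 5.17 ± 1.14 CPM in mESCs. Of 8 genes, 7 were tested, 5 were lower (71.4%) and 1 higher (14.3%) in mESCs, against 25.0% and 22.8% of all tested genes. Dkk2, which binds LRP co-receptors, held 75.2, 80.0, 84.1 and 88.7 CPM in MEFs and 1.73, 1.70 and 0.472 CPM in mESCs. MEF libraries were close to each other and far above mESCs, and the log2 fold change was -5.95 (standard error 0.340, edgeR, adjusted p = 3.08e-07). Sfrp2, a soluble protein with a Frizzled-like domain, held 29.2, 80.9, 19.7 and 70.5 CPM in MEFs and 0.759, 1.25 and 2.12 CPM in mESCs. MEF libraries B and D lay well above A and C, and all lay above mESCs, with a log2 fold change of -5.18 (edgeR, adjusted p = 5.25e-05). Its last exon overlaps Gm26771 on the other strand over 25.7% of its bases.

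Dkk3, a Dickkopf relative, held 35.1, 52.4, 37.7 and 46.1 CPM in MEFs and 2.49, 2.84 and 3.19 CPM in mESCs. The groups were clearly apart, with a log2 fold change of -3.91 (edgeR, adjusted p = 6.99e-07). Dkk1, whose promoter held the core at 2 places, had a log2 fold change of -2.46 (edgeR, adjusted p = 0.0165), but MEF library C at 1.52 CPM lay under mESC library A at 2.17 CPM. Its value was -3.60 without mESC library A, and it did not pass without mESC library B (-2.11) or C (-2.13).

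Sfrp1 remained present in both cell types, at 318 to 491 CPM in MEFs and 265 to 306 CPM in mESCs. Its log2 fold change of -0.53 (edgeR, adjusted p = 0.0334) was -0.25 and no longer past the threshold without TMM scaling. It also did not pass without MEF library B, MEF library D, mESC library A or mESC library C, with values of -0.52 to -0.44. The epidermal keratins Krt5, Krt14 and Krt15 were likewise present in all 7 libraries, at 32.8 to 48.2 CPM, and did not pass the threshold. The 8 epithelial and keratinocyte markers summed to 160.7 to 195.1 CPM in MEFs and 252.1 to 307.6 CPM in mESCs, with Cdh1 and Cldn4 higher and Krt18 lower in mESCs. The part of such transcripts in the levels of Sfrp1, Lgr5 and Tcf7l1 was not tested.

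Notum, an enzyme that removes the lipid from WNT proteins, was the secreted inhibitor higher in mESCs, with 1, 3, 5 and 0 counts in MEFs and 25, 38 and 27 in mESCs. Only MEF library C was above the floor, and the pooled ratio was 11.9 with an interval of 6.01 to 26.9 (edgeR log2 fold change 3.47, adjusted p = 0.00373). Without MEF library C the fitted value was 4.30. Exons of Notum overlap Notumos and Myadml2os on the other strand over 38.1% of their bases, though not in the last exon. Sfrp4 did not pass with a log2 fold change of -1.74, and Sfrp5 was not tested, with 0 to 2 counts in MEFs and 3 to 6 in mESCs.

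R-spondins strengthen WNT signals by keeping Frizzled receptors on the surface, and 3 of the 6 tested genes of this axis were lower in mESCs while 0 were higher (edgeR, 0 higher at an unadjusted p under 0.05 and 0 by DESeq2). Over all tested genes 25.0% were lower and 22.8% higher. Rspo3 (chromosome 10, 29452416 to 29535867) held 37.9, 96.1, 57.5 and 105.1 CPM in MEFs and 1.41, 2.16 and 2.36 CPM in mESCs. MEFs varied among themselves but stayed far above mESCs, with a log2 fold change of -5.22 (edgeR, adjusted p = 3.91e-06). Rspo2 had 54, 63, 37 and 45 counts in MEFs and 1, 1 and 3 in mESCs. No mESC library exceeded the floor, and the pooled ratio was 33.4 with an interval of 14.1 to 104 (edgeR log2 fold change -4.97, adjusted p = 4.39e-05). Without mESC library C, which held 3 of the 5 mESC counts, the fitted value was -5.67.

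Lgr5, an R-spondin receptor known as a stem cell marker of several epithelia, held 33.7, 47.5, 28.7 and 51.8 CPM in MEFs and 21.5, 18.3 and 23.5 CPM in mESCs. It was thus higher in the fibroblasts, without overlap, and the log2 fold change was -0.94 (standard error 0.242, edgeR, adjusted p = 0.00829). Its paralog Lgr4 overlapped fully, at 102 to 153 CPM in MEFs and 72.7 to 161 CPM in mESCs, with a standard error of 0.259 around a log2 fold change of almost 0. Znrf3, a ubiquitin ligase that removes Frizzled receptors, had a log2 fold change of -0.29 and did not pass. Rspo1 did not pass either, with 45 counts in MEF library B and 1 to 4 in the other MEF libraries. Rnf43, the relative of Znrf3, was not tested, with 1 to 20 counts in the 7 libraries.

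Of 5 destruction complex genes, which hold β-catenin low without a WNT signal, Gsk3b was lower, Apc was higher and 3 did not pass. The share was 20% in each direction, close to the 25.0% lower and 22.8% higher over all tested genes. Gsk3b, the kinase that marks β-catenin for degradation, held 335.6, 340.1, 263.0 and 335.2 CPM in MEFs and 152.1, 150.4 and 135.2 CPM in mESCs. MEF library C was the lowest of its group and still above all mESC libraries, and the log2 fold change was -1.13 (standard error 0.144, edgeR, adjusted p = 9.22e-05). Apc, the scaffold of the complex, held 38.3, 40.9, 39.5 and 33.9 CPM in MEFs and 46.7, 52.4 and 56.7 CPM in mESCs. The log2 fold change of 0.45 (edgeR, adjusted p = 0.0394) did not pass the threshold in any of the 7 fits that left out a library, with values of 0.37 to 0.51.

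Axin2, a component that is also a common readout of canonical signalling, held 8.06, 11.6, 2.74 and 5.09 CPM in MEFs and 11.1, 4.89 and 6.13 CPM in mESCs. The groups overlapped, with a log2 fold change of 0.09 and a standard error of 0.486, so a moderate difference in either direction was not detectable here. Axin1 and Gsk3a also did not pass, with log2 fold changes of -0.39 and -0.20. For Gsk3a, 65.7% of the last exon overlaps 9130221H12Rik on the other strand.

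Ctnnb1, the gene of β-catenin (chromosome 9, 120929216 to 120960507), held 15.3, 11.1, 13.3 and 8.59 CPM in MEFs and 7.59, 9.32 and 5.90 CPM in mESCs. MEF library D lay under mESC library B, and the log2 fold change of -0.67 (standard error 0.304) did not pass (edgeR, adjusted p = 0.0945). The last exon of Ctnnb1 overlaps Ulk4 on the other strand over 18.2% of its bases. Nkd1, an inhibitor that binds Dishevelled, held 15.7, 25.9, 12.8 and 22.9 CPM in MEFs and 3.03, 1.02 and 1.30 CPM in mESCs. It was lower in each mESC library, with a log2 fold change of -3.42 (edgeR, adjusted p = 0.000112), and -4.05 without mESC library A. Dact1, another Dishevelled partner, did not pass with a log2 fold change of -1.06, and its mESC libraries had 93, 16 and 72 counts. Its groups did not overlap, at 10.4 to 18.1 CPM in MEFs and 1.82 to 10.1 CPM in mESCs. The last exon of Dact1 overlaps 4930474H06Rik on the other strand over 43.1% of its bases.

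The TCF/LEF factors did not move together. Tcf7l2 (chromosome 19, 55741820 to 55933654) held 426.4, 604.9, 527.9 and 436.2 CPM in MEFs and 144.4, 213.1 and 127.8 CPM in mESCs. Each MEF library was above each mESC library, and the log2 fold change was -1.62 (standard error 0.207, edgeR, adjusted p = 9.09e-05). Tcf7l1, known in mESCs as a repressor of pluripotency genes, held 51.3, 101.3, 74.8 and 73.2 CPM in MEFs and 39.7, 38.3 and 43.8 CPM in mESCs. It too was lower in mESCs without overlap, by a smaller log2 fold change of -0.89 (edgeR, adjusted p = 0.0068).

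Tcf7, known in mESCs as an activator, held 2.97, 4.43, 4.27 and 0.954 CPM in MEFs and 18.4, 18.1 and 8.73 CPM in mESCs. The groups were apart in the other direction, and the log2 fold change was 2.24 (standard error 0.469, edgeR, adjusted p = 0.00246). Lef1 held 3.93, 8.27, 6.86 and 2.70 CPM in MEFs and 1.73, 10.9 and 12.0 CPM in mESCs. The mESC library A stood far under the other 2, the groups overlapped, and the log2 fold change of 0.59 (standard error 0.598) did not pass. Of the TCF/LEF counts, Tcf7l2 held 85.8 ± 1.65% in MEFs and 71.1 ± 4.80% in mESCs, and Tcf7 held 0.528 ± 0.231% and 6.67 ± 2.25% (SD, n = 4 and 3).

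Ratios of 2 genes within a library do not depend on the scaling between libraries and were compared for 11 pairs. The 13 pairs were chosen with earlier results of these data known. Of these, 2 were left out because a gene was not tested (Rnf43 with Znrf3 and Wnt5a with Wnt5b). Counts were compared as log2 ratios after adding 0.5, and 8 of 11 pairs did not overlap between the cell types. Of all tested single genes, 52.1% did not overlap in CPM, and no such share was computed for other pairs of genes. The ratio of Porcn to Wls was -6.90 ± 0.887 over the 4 MEF libraries and 0.33 ± 0.580 over the 3 mESC libraries (mean ± SD). That of Sfrp1 to Sfrp2 was 3.22 ± 0.658 in MEFs and 7.73 ± 0.696 in mESCs, and that of Ror1 to Ror2 was -1.42 ± 0.561 and -5.08 ± 1.12. Fzd2 to Fzd7 was 2.42 ± 0.448 in MEFs and -2.60 ± 0.676 in mESCs, and Fzd1 to Fzd7 was 0.43 ± 0.470 and -5.06 ± 1.36. For Gsk3a to Gsk3b, Lrp5 to Lrp6 and Tcf7l1 to Tcf7l2 the mESC mean minus the MEF mean was 0.94, 1.56 and 0.80, with all mESC libraries above the MEF libraries. Lef1 to Tcf7, Axin1 to Axin2 and Lgr4 to Lgr5 overlapped.

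By an exact permutation test over the 35 assignments of 4 and 3 libraries, two-sided with the smaller tail doubled, the smallest p possible was 0.0571, so this version of the test could not reach 0.05. Accordingly 0 of the 11 pairs passed, 0 had an unadjusted p under 0.05, and the smallest adjusted p was 0.0786 (Benjamini-Hochberg over 11 pairs). Taking the absolute difference as the permuted value, a version chosen after those p-values were seen, the smallest exact p is 0.0286 and 7 of 11 pairs passed with an adjusted p of 0.0449. The pairs too were chosen with earlier results known, so these p-values describe a selected list.

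**Figure D4:**
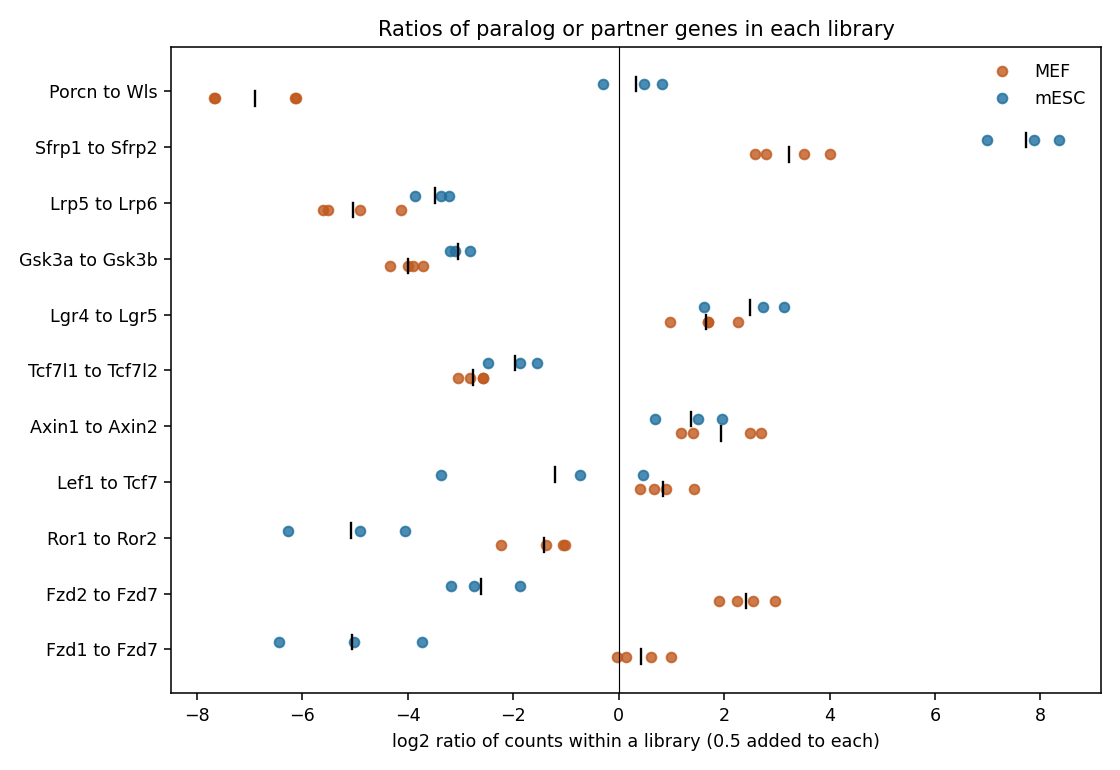
The log2 ratio of the counts of 2 genes in the same library (0.5 added to each count) for 11 pairs, with each point 1 library (orange MEF, n = 4, and blue mESC, n = 3) and each black bar the group mean. Orange and blue points are apart for 8 pairs, most widely for Porcn to Wls, and overlap for Lef1 to Tcf7, Axin1 to Axin2 and Lgr4 to Lgr5.

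Other genes of the pathway, in 4 lists that hold no member, were lower in mESCs more often than higher too. Of 87 genes, 77 were tested, 16 were higher (20.8%) and 37 lower (48.1%). Over all tested genes 22.8% were higher and 25.0% lower, so the share higher was near that of all genes. The lists were chosen with earlier results of these data known. Among 17 tested antagonists and cofactors, 13 were lower (76.5%) and 2 higher (11.8%). Wif1, a soluble WNT-binding inhibitor, had 141 counts in MEFs and 0 in mESCs and was at least 13.1-fold lower in mESCs against 3 counts in each mESC library. Cthrc1, a secreted WNT cofactor, held 679.4 ± 51.8 CPM in the 4 MEF libraries and 6.21 ± 1.93 CPM in the 3 mESC libraries (mean ± SD), a log2 fold change of -6.77. Frzb, a relative of the Sfrp genes, had 171 counts in MEFs and 1 in mESCs, a ratio of 143 with an interval of 25.4 to 5695. Dact2 and Dkkl1 rose in mESCs by log2 fold changes of 3.22 and 1.61, where Dact2 had 1, 0, 12 and 1 counts in MEFs. The value of Dact2 was 5.60 without MEF library C, and it did not pass without mESC library A (3.12) or C (2.91). Dkkl1 did not pass without mESC library A (1.47) or C (1.39).

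Of 32 tested intracellular genes, 5 were higher (15.6%), 12 were lower (37.5%) and 15 did not pass the threshold. Over all tested genes 22.8% were higher and 25.0% lower. Bcl9l, a β-catenin coactivator, had a log2 fold change of -2.46, Pygo1, which acts with it, -1.61, and Amer1, a partner of APC, -1.39. The value of Pygo1 was -2.33 without mESC library B, and it did not pass without MEF library B (-1.31), mESC library A (-1.44) or mESC library C (-1.28). Tle4, a corepressor of TCF factors, rose from 21.1 ± 5.69 CPM over the MEF libraries to 185.0 ± 35.3 CPM over the mESC libraries (SD), a log2 fold change of 3.13. Frat2 and Frat1, which bind and inhibit GSK3, were higher by log2 fold changes of 1.85 and 1.79. Frat2 rested on mESC library B, at 13.5 CPM against 3.30 and 3.90 CPM in the other mESC libraries, and without it the value was 0.93 and did not pass. Frat2 also did not pass without MEF library C (1.60) or D (1.61). Of the other higher genes, Mesd (0.38) did not pass without MEF library A, B, C or D or mESC library A or C. Tnks2 (0.54) did not pass without mESC library A or B. Among the lower genes, Csnk1g2 (-0.66) did not pass without mESC library B or C.

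Of 15 tested planar polarity genes, 5 were higher (33.3%) and 6 lower (40.0%), against 22.8% and 25.0% of all tested genes. Daam2, a formin of this branch, had 547 counts in MEFs and 6 in mESCs, a ratio of 76.4 with an interval of 34.9 to 209. Prickle1, a core polarity component, had a log2 fold change of -4.85 and Ptk7, a membrane receptor, of -2.72. Celsr1, Celsr3 and Intu rose in mESCs by log2 fold changes of 3.78, 1.76 and 1.57, where Celsr1 had 0 to 7 counts in MEFs. Celsr3 did not pass without mESC library A or C, with a value of 1.62 in both fits. Of the other higher genes, Scrib (0.72) did not pass without MEF library A, B or D or mESC library A or C. Vangl1 (1.19) did not pass without MEF library B or D or mESC library A, B or C.

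Genes reported as targets of β-catenin split as well, with 4 of 13 tested higher in mESCs (30.8%) and 6 lower (46.2%). The shares over all tested genes were 22.8% and 25.0%. Ccn4 fell from 724.9 ± 109 CPM over the MEF libraries to 4.19 ± 0.380 CPM over the mESC libraries (SD), a log2 fold change of -7.43. Ccn5 had 321 counts in MEFs and 3 in mESCs, a ratio of 89.7 with an interval of 30.4 to 437. Cd44, a surface receptor for hyaluronan, had a log2 fold change of -5.92. Nr5a2, Cdx1 and Eomes, transcription factors of early development, rose in mESCs by log2 fold changes of 5.87, 2.29 and 2.08. Cdx1 did not pass without mESC library A (2.12) or B (2.15). Among the lower genes, Bambi (-0.68) did not pass without mESC library B or C. These genes have other regulators in both cell types, and their levels do not measure canonical signalling by themselves.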

How the data were processed

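Gene counts of 4 MEF and 3 mESC libraries were used. The authors split and trimmed the reads (Sabre, Cutadapt), mapped them on mm10 (STAR), removed copies of a molecule by its identifier (Je) and assigned reads to genes (featureCounts). The deposited counts are whole numbers without normalization. The submitters' processing notes give STAR 2.4.2a, and the study's methods name another version. The annotation release and strand setting are not given in the sources used here. The labels' extraction text describes blood stem cells of young and aged mice, and sorting is stated for the ATAC-seq cells only. The column names carry a letter O for every MEF library and a letter Y for every mESC library, whose meaning is not given, so whatever they mark cannot be told apart from the cell type. The number of unused per-sample columns was 0.

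In R 4.3.3, counts were fitted by edgeR 4.0.16, which uses limma 3.58.1, under TMM scaling, its filter on low counts (filterByExpr) and its quasi-likelihood test. All 7 libraries entered with cell type as the only term, and genes were called at 0.05 after Benjamini-Hochberg adjustment over all tested genes. The code was tested on simulated data, where the share of changed genes recovered missed the criterion first set, which was then replaced by one on genes of higher counts, with no change to the fit. Alternatives were DESeq2 1.42.0, other scalings and filters, a test against a fold change of 2 and leaving out each library. Intervals and floors cover counting error only. Coordinates and exon overlaps are from GENCODE M21 on GRCm38, and promoters from RefSeq on GRCm38.p6. The members, gene lists and pairs were chosen with earlier results of these data known. All called members are named, with values per library for up to 4 in each role and for Ctnnb1, Axin2, Tcf7l1, Lef1, Lgr5, Porcn, Wls, Lrp6 and Gsk3b, and up to 3 higher and 3 lower genes of each other list. Further genes of those lists are named where leaving out a library lost their call. Shares within families, promoter CpG counts and the absolute-difference test were chosen after values were seen.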

Additional observations from a re-analysis of the deposited data

Results flagged for a closer look

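In the MEF group, 1 library stood far from the other 3 for 6 of 59 members with more than 3 counts in some MEF library, where chance would give about 2.95. Fzd7 was low in MEF library B at 23.1 CPM, and Wnt16 was low in MEF library A at 4.99 CPM. Gsk3b was low in MEF library C at 263.0 CPM. Rspo1 was high in MEF library B at 5.39 CPM, from 45 counts. Fzd9 was high in MEF library A at 0.480 CPM, from 5 counts, and Wnt10b in MEF library C at 1.22 CPM, from 8 counts. No single library held more than 2 of these flags.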

How the results depend on the processing

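No paired analysis was possible because all columns carry the same number 1 after the cell type, and nothing links their last number to the sample numbers in the labels. Testing against a fold change of 2 left 17 members lower in mESCs in place of 26, and 6 other pathway genes higher and 24 lower in place of 16 and 37, by construction of a stricter test. Leaving out each library in turn gave 8 to 15 other pathway genes higher, with 8 without mESC library A and 10 without mESC library C. It gave 5 to 6 members higher and 23 to 27 lower. Over all tested genes, 47.9% were called with all libraries and 24.1% against a fold change of 2. That share was 44.8 to 46.5% without 1 MEF library and 40.8 to 41.3% without 1 mESC library. The number of pairs past an adjusted p of 0.05 was 0, and 7 with the absolute difference as the permuted value, a version chosen after the first p-values were seen. Without TMM scaling 60.8% of the calls over all genes were higher in mESCs in place of 47.7%, and 32 of the 33 called members remained called. DESeq2, and its size factors in edgeR, kept all 33.

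Of the values of single members under an alternative, 606 kept their direction and side of the threshold, 28 no longer passed, 2 passed newly and 18 turned direction. Those that turned belong to 7 members that did not pass the threshold with all libraries. Without TMM scaling the log2 fold changes were 0.21 for Fzd7, 0.09 for Gsk3a, 0.28 for Lgr4 and 0.28 for Rspo1, which follows from the scaling. DESeq2 gave 0.02 for Lgr4 and 0.03 for Rspo1, and its size factors in edgeR gave 0.02 for both. Leaving out each library gave -0.22 to 0.27 for Lgr4, -0.23 to 0.26 for Wnt3 and -0.33 to 0.45 for Axin2. Over the 6 such fits in which each was tested, it gave -0.40 to 0.35 for Rspo1 and -0.09 to 0.99 for Fzd10os. Rspo1 was not tested without MEF library B, which held 45 of its 52 counts in MEFs. The other MEF libraries had 2, 1 and 4 counts of it, and mESC libraries A to C had 16, 21 and 6. Dact1 passed without a filter beyond 1 count, at -1.10, and Sfrp4 without MEF library C, at -2.02. Apc also lost its call without that filter. Depth limits Wnt11, Wnt2, Rspo2, Fzd9 and Notum, which were at or under 3 counts in most libraries of one cell type.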

Other observations

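The CpG content of promoters was looked at after the values were seen and was not tested. Taking the window of 300 bases with the most CpG for each gene, the 4 called higher members with a RefSeq promoter (Fzd5, Fzd10, Tcf7 and Fzd9) held 38 to 53 CpG, with a median of 45. The 16 lower members held 6 to 51, with a median of 21.5, and included Wnt4 with 51 and Wnt11 with 45. The 11 members that did not pass the threshold held 14 to 58, with a median of 29. The ranges of higher and lower members overlapped. Porcn, Notum and Apc were also called higher but had no RefSeq promoter matched. Counted over every window and not the richest of each gene, the median was 7 CpG for all promoters and 24 for member promoters.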
